A study of Homo sapiens with 10 samples.

Results

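Replication-dependent histone genes encode the H1 linker histones and the H2A, H2B, H3 and H4 core histones, which package newly made DNA. They stand in clusters with many near copies. In dividing cells they are transcribed mainly in S phase, when DNA is replicated, and most of their transcripts end after a conserved stem-loop instead of a poly(A) tail. The stem-loop is bound by SLBP, the stem-loop binding protein, and the message is degraded when replication stops. Some of these genes also make polyadenylated transcripts that run past the stem-loop, mostly in cells that leave the cycle or differentiate.

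Histone entries were chosen from a table of FPKM (fragments scaled by transcript length and library size) by their names, HIST1 to HIST4 followed by a histone type, with pseudogene names ending in PS and a number passed over. Of 54826 entries, 73 had such a name, and the 40 with at least 0.5 FPKM in at least 1 of 10 libraries are described here. The level thus chose the entries, and their being above 0.5 FPKM is no finding. The 40 entries hold 1 of type H1, 8 of H2A, 13 of H2B, 6 of H3, 9 of H4 and 3 that join 2 types. Of the other 33 named entries, 14 were listed at 0 in all 10 libraries and 19 were above 0. Just inside the limit were HIST1H2BO, with a highest value of 0.504 FPKM, and HIST1H3H with 0.516 FPKM. Just outside were HIST1H2BM with 0.498 FPKM and HIST1H2AH with 0.497 FPKM.

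In 4 of the 40 entries the table merges neighboring genes, so that the value belongs to no single gene. These are HIST1H2AL with HIST1H2BN, HIST1H2AD with HIST1H3D and the clone RP1-34B20.21, HIST1H2AM with HIST1H3J, and HIST2H2BB with the pseudogene HIST2H3PS2 and the clone RP5-998N21.10. The gene annotation GENCODE 29 lists 32 of the entries as protein-coding and 4, HIST2H2BA, HIST2H2BC, HIST2H2BD and HIST2H3DP1, as pseudogenes.

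The libraries came from WM164, a human melanoma cell line kept in medium with charcoal-treated serum. Of the 10, 5 came from cells labelled as a VDR knockout, which the study calls VDR-KD, and 5 from cells labelled wild type with a scrambled infection (VDR-WT). VDR is the vitamin D receptor, a nuclear receptor that binds hydroxylated forms of vitamin D. In each genotype, 1 library was made after 24 h with 0.1% ethanol, the vehicle, and 1 with each of 4 hydroxylated forms at 100 nM, namely 1,25(OH)2D3 and 25(OH)D3 and, with the side chain hydroxyl at another carbon, 1,20(OH)2D3 and 20(OH)D3. No condition had a replicate, and independent cell populations within a genotype are not named in the labels. The p-values thus measure the spread between libraries, and the receptor cannot be told apart from other differences between both cell populations. Values after ± are the SD over the 5 libraries of a genotype (n = 5 treatments). VDR mRNA had 13.1 ± 1.16 FPKM under the label VDR-KD and 7.70 ± 1.66 FPKM under VDR-WT, which goes against the label, and directions below follow the labels.

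The summed FPKM of a library was 577696 to 651658 over all entries. Of 8 melanocyte markers, all reached 1 FPKM in at least 1 library, but TYRP1 did so in VDR-WT alone. TYRP1 had a mean of 0.537 FPKM in VDR-KD against 0.867 FPKM in VDR-WT. The markers had summed levels of 5758 to 8389 FPKM in VDR-KD against 6340 to 9322 FPKM in VDR-WT, mostly from PMEL and MLANA. Of the leukocyte markers, CD3E was at 0 in every library, and PTPRC had a mean of 0.0183 FPKM in VDR-KD against 0.00431 FPKM in VDR-WT. CD14 had a mean of 0.14 FPKM in VDR-KD against 0.118 FPKM in VDR-WT. The keratinocyte markers KRT5 and KRT14 were at 0 in every library, while KRT10 had a mean of 9.83 FPKM in VDR-KD against 10.3 FPKM in VDR-WT. Endothelial markers summed to 9.90 to 22.7 FPKM in VDR-KD against 3.42 to 9.12 FPKM in VDR-WT, nearly all of it from KDR. VWF had a mean of 0.386 FPKM in VDR-KD against 0.314 FPKM in VDR-WT, and CDH5 and PECAM1 were under 0.25 FPKM on average. Fibroblast markers summed to 94.0 to 132.9 FPKM in VDR-KD against 73.3 to 95 FPKM in VDR-WT, mainly from LUM, with COL3A1 near 0. PDGFRB had a mean of 1.58 FPKM in VDR-KD against 1.31 FPKM in VDR-WT, and COL1A1 0.632 FPKM against 0.378 FPKM. The part of these markers in the histone values was not tested.

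The start regions of these genes were searched for short motifs known from histone promoters, and other motifs were not searched. RefSeq promoters (GRCh38.p14, 250 bases before to 50 after the start) matched 33 of the 43 histone gene names in the 40 entries. The octamer ATTTGCAT, searched on both strands and known in H2B genes as a site for OCT1, was found in 15 of the 33 promoters, against 1.66% of 27305 promoters of all genes. It was present in 9 of 11 H2A promoters, 5 of 8 of H2B, 1 of 6 of H3, 0 of 7 of H4 and 0 of 1 of H1. Some H2A and H2B genes stand close on opposite strands, as HIST1H2BJ and HIST1H2AG do. The same octamer can then count for both, so these counts are not independent. TATAAA on the gene's strand was in 19 of the 33 promoters, against 7.17% of all, and CCAAT on either strand in 28, against 33.0% of all. By type, CCAAT was in 2 of 7 H4 promoters and in every promoter of the other types. HIST1H4H and HIST2H4A held none of these motifs. On the reverse strand CCAAT reads as ATTGG, and none of these motifs lies whole within another.

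The promoters of 4 genes are printed because the results below turn on them: HIST1H2BJ and HIST1H3C were higher in VDR-KD, HIST1H2BL missed the threshold, and HIST1H2BK was the most abundant entry. Each shows the 150 bases before the start on the gene's strand, with the octamer, TATAAA and CCAAT or ATTGG in capitals.
HIST1H2BJ (chr6:27132796-27132945, minus strand): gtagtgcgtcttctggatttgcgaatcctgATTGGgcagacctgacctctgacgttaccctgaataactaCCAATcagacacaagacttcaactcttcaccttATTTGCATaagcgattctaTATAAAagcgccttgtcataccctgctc
HIST1H2BK (chr6:27146859-27147008, minus strand): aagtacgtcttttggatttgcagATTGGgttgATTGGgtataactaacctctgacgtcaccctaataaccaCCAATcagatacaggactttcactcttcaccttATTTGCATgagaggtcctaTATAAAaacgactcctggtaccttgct
HIST1H2BL (chr6:27807930-27808079, minus strand): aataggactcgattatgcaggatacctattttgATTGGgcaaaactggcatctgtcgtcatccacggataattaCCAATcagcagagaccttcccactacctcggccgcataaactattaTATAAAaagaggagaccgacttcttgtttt
HIST1H3C (chr6:26045234-26045383, plus strand): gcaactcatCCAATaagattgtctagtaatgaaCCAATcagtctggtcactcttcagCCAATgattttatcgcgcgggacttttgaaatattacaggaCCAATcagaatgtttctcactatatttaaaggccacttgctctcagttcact
HIST1H2BJ and HIST1H2BK, neighbors on chromosome 6, both hold the octamer, TATAAA and CCAAT, HIST1H2BL holds no octamer, and HIST1H3C holds 4 copies of CCAAT in the searched region with neither of the other motifs. A match is a description of letters and not a shown site.

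At the other end of the message, a stem-loop was searched in the annotated transcripts as a perfect stem of 6 bases that starts with GG, closed by a loop of 4 bases that starts with T. It was found for 17 of the 43 gene names, against 1.19% of 83129 protein-coding transcripts. Printed in capitals with 5 flanking bases on each side are those of 4 entries described below, since they show where a transcript would normally end.
HIST3H2A: ataaaGGCTCTTTTCAGAGCCaccta
HIST2H2BE: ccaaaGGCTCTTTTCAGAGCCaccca
HIST1H2BD: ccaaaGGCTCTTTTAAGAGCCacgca
HIST4H4: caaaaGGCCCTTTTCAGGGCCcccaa
Where a gene has several annotated transcripts, the one that goes on longest after the stem-loop was taken. In 12 of the 17, that transcript goes on for more than 100 bases after the stem-loop, up to 1862 bases in HIST1H3E. It goes on for 390 bases in HIST3H2A and 1729 bases in HIST2H2BE. Of the 26 names with no match, 17 have no annotated transcript of 420 bases or more, so the model may stop before the stem-loop. The transcripts of HIST1H2BJ, of which 2 of 3 are made of 2 exons, hold no match either. The sources used here give neither the annotation behind the FPKM nor the way the RNA was selected, and 29 of the 40 entries have the span of the gene in GENCODE 29.

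Levels were low. The 40 entries together had 39.9 ± 2.33 FPKM in VDR-KD against 35.3 ± 6.77 FPKM in VDR-WT, which is 0.00473% to 0.00703% of all FPKM of a library. Averaged over the 10 libraries, 6 of the 40 reached 2 FPKM, 11 reached 1 FPKM and 29 did not. An FPKM of at least 0.5 was reached in all 10 libraries by 5 entries and in 1 library by 7. Both genotypes reached it for 26 entries, VDR-KD alone for 8 and VDR-WT alone for 6.

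**Figure D1:**
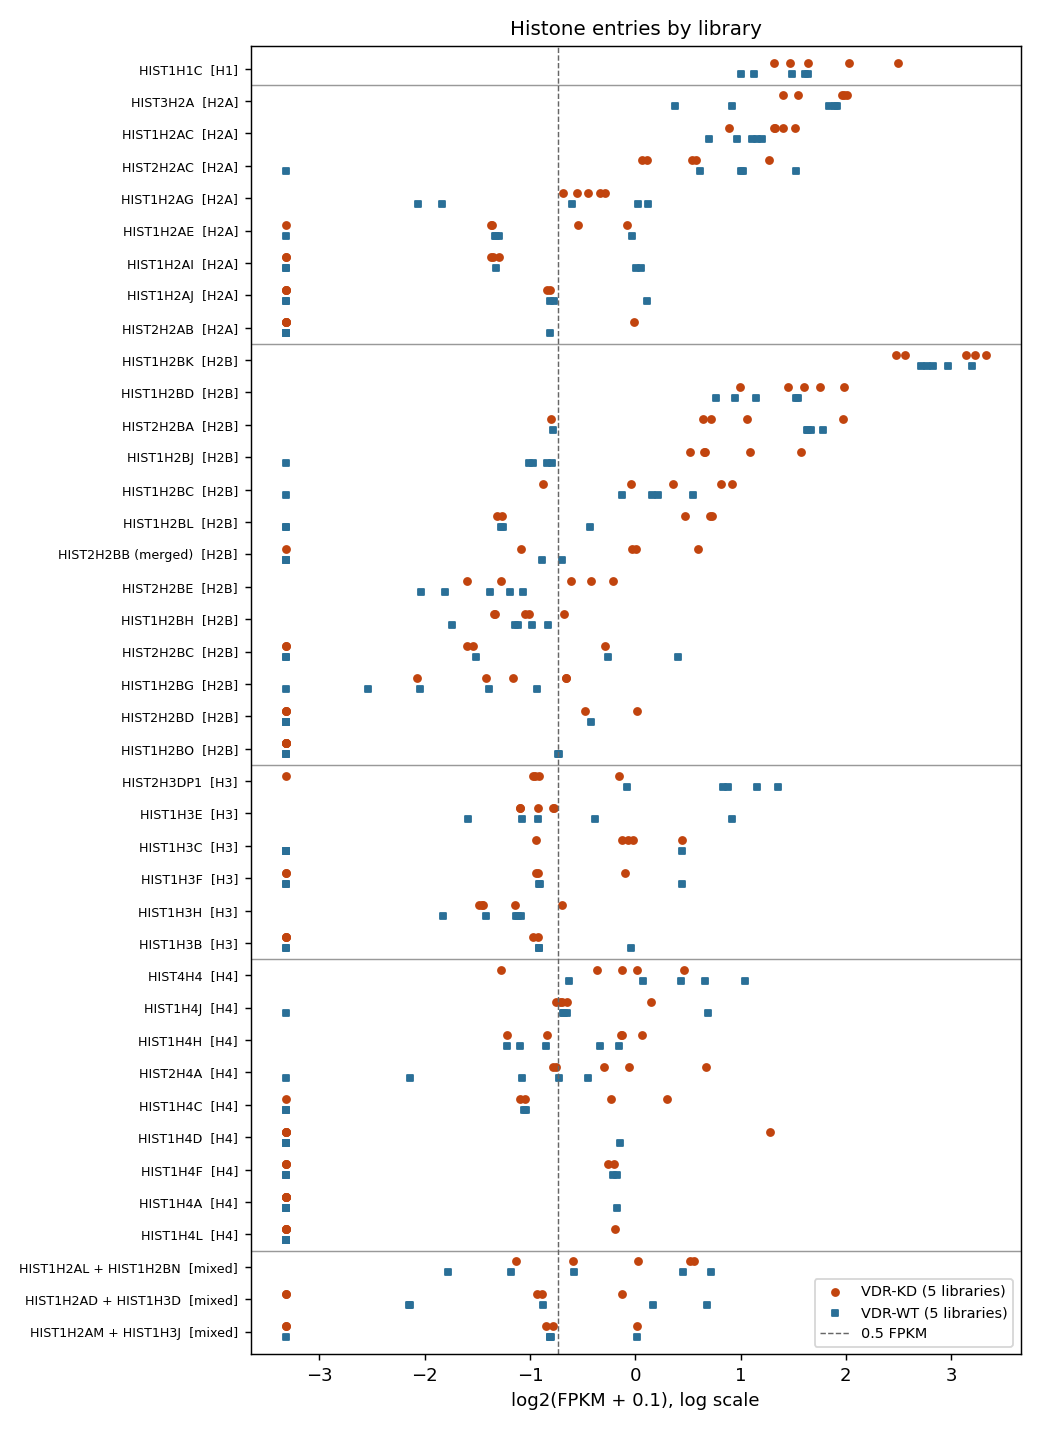
Each row is 1 of the 40 histone entries, grouped by histone type, and each point is 1 library on a scale of log2 of FPKM plus 0.1, with circles for the 5 VDR-KD and squares for the 5 VDR-WT libraries. HIST1H2BK lies farthest right, and many entries have libraries at 0, the leftmost position. Circles and squares do not overlap for the tested HIST1H2BJ, which reached 0.5 FPKM in VDR-KD alone, and HIST2H3DP1. How common this is among all tested entries was not counted.

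The FPKM of 23 single-exon entries fell on steps, each a whole number of fragments within 0.0198 of a fragment. A single fragment was worth 0.734 to 0.809 FPKM for an entry of 312 bases, 0.473 to 0.516 FPKM for 381 bases and 0.0435 to 0.047 FPKM for 2250 bases, depending on the library. The limit of 0.5 FPKM was thus passed by 1 fragment in genes of 312 bases, all of type H4, and in some libraries in genes of 373 or 381 bases. HIST1H4J, which has 373 bases and is among the entries tested below, had 1 fragment in most libraries. HIST1H4A and HIST1H4L each rest on 1 fragment in all 10 libraries, and HIST1H2BO on 2. Over the 23 entries there were 585 fragments in VDR-KD and 453 in VDR-WT. Some of the 23 reached 0.5 FPKM in VDR-KD alone and others in VDR-WT alone, so these totals are in part set by the choice of entries. The 4 entries with over 100 fragments were HIST3H2A with 232, HIST1H2BK with 154, HIST1H1C with 146 and HIST1H2AG with 131, and 13 entries had fewer than 20. Intervals given for fragments are exact 95% Poisson intervals and cover counting error only.

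**Figure D2:**
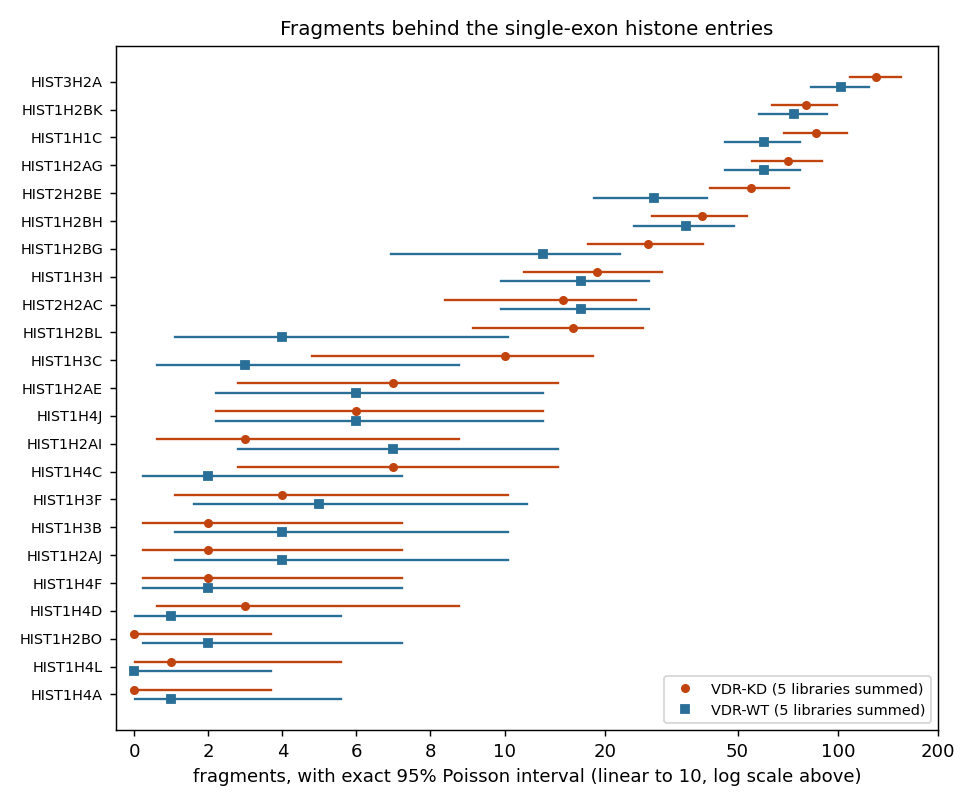
Fragments summed over the 5 VDR-KD (circles) and the 5 VDR-WT (squares) libraries for the 23 single-exon entries, with exact 95% Poisson intervals on an axis that is linear to 10 and logarithmic above. The intervals of both genotypes overlap for most entries. They are apart for HIST2H2BE, with 55 fragments in VDR-KD and 28 in VDR-WT, an entry that reached 0.5 FPKM in VDR-KD alone and so was chosen through the genotype where it is high.

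Histone genes share sequence, and fragments in shared stretches cannot be assigned to 1 gene. Of the 43 gene names, 20 share no window of 75 bases with the annotated transcripts of another gene, and 12 share more than 50% of their windows. HIST2H4A shares 100% with its copy HIST2H4B, HIST1H4J 79.6% with HIST1H4K, HIST2H2BA 55.2% with other H2B genes and pseudogenes, and HIST1H2BK 50.5%, mostly with H2BFS. HIST2H3DP1 shares 47.7%. HIST1H3C, HIST3H2A and HIST1H1C share none and HIST1H2BJ 1.37%. The handling of fragments with several matches is not given, and the values of the sharing entries are uncertain in that respect.

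Entries on chromosome 6 numbered 29, of which 17 lie between 26021679 and 26285638 and 12 between 27125897 and 27893843 (GRCh38). They held 70.7% of the summed FPKM. A further 10 entries on chromosome 1 held 26.6%, and HIST4H4 stands alone on chromosome 12.

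By type, H2B made up 46% of the summed FPKM, H2A 22.4%, H4 10.4%, H3 8.41%, H1 8.05% and the entries of 2 joined types 4.66%. H2B entries summed to 19.1 ± 1.41 FPKM in VDR-KD against 15.4 ± 2.82 FPKM in VDR-WT, and were higher in VDR-KD in 4 of 5 treatments. Among them HIST1H2BJ, HIST2H2BE, HIST1H2BG and HIST1H2BH reached 0.5 FPKM in VDR-KD alone, and HIST1H2BO in VDR-WT alone. The direction of the H2B sums is thus in part set by the choice of entries. For H2A the sums were 8.74 ± 1.10 FPKM and 8.14 ± 1.94 FPKM. For H4 they were 4.34 ± 1.10 FPKM and 3.50 ± 0.604 FPKM. The sums of H3 went the other way, with 2.52 ± 0.418 FPKM in VDR-KD against 3.80 ± 1.76 FPKM in VDR-WT. The pseudogene HIST2H3DP1 among them had a mean of 0.412 FPKM in VDR-KD against 1.77 FPKM in VDR-WT, a wider gap than that of the sums. The direction of the H3 sums thus rests on that entry and is not a trait of the type. The ratio of VDR-KD to VDR-WT within a treatment ran from 0.971 to 1.69 for H2B, from 0.763 to 1.52 for H2A, from 0.878 to 1.77 for H4, from 0.37 to 1.09 for H3 and from 0.886 to 2.90 for HIST1H1C, the H1 entry. For all entries together it ran from 0.894 to 1.46. The lowest sums were those of VDR-WT with 25(OH)D3, at 29.3 FPKM, and with 1,25(OH)2D3, at 29.8 FPKM, and the highest was VDR-KD with 1,25(OH)2D3, at 43.5 FPKM, so the ranges of the genotypes overlap. These sums are a description and were not tested.

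**Figure D3:**
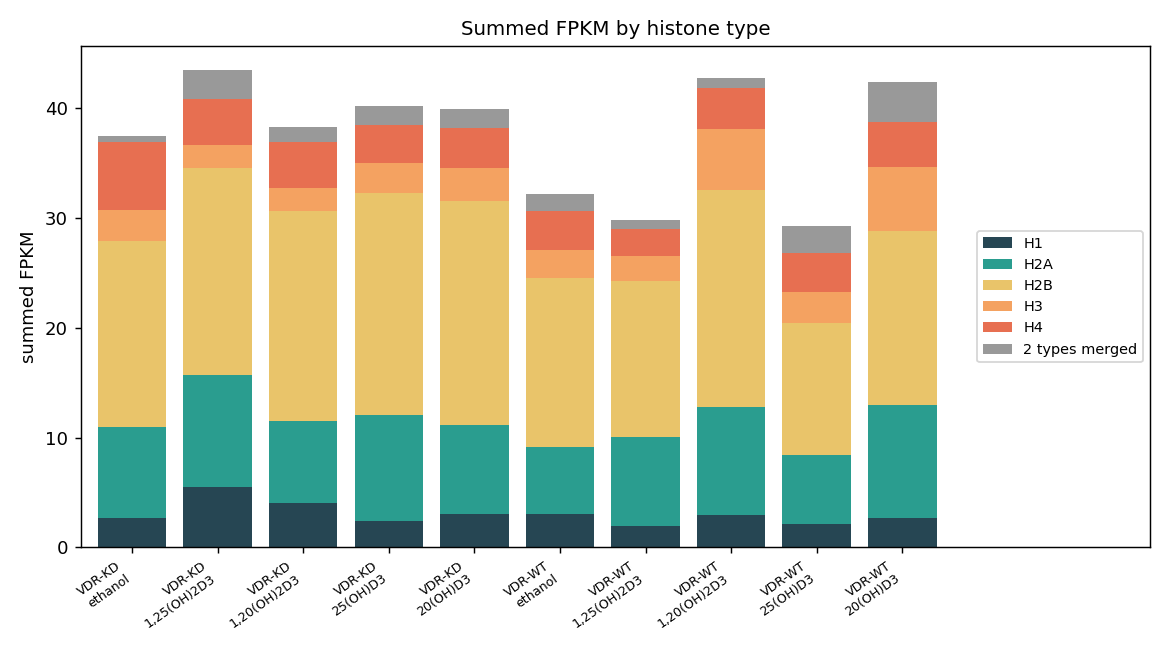
Stacked bars give the summed FPKM of the 40 entries by histone type in each of the 10 libraries, with entries that join 2 types on top. H2B is the largest part of every bar, and the bars run from 29.3 to 43.5 FPKM.

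For a test, 19 of the 40 entries had a mean of at least 0.5 FPKM, and 21 did not. A model fitted with limma to log2 of FPKM plus 0.1 over all 14689 entries that passed this filter took genotype and treatment as terms, with 4 residual degrees of freedom. Of the 19, HIST1H2BJ reached 0.5 FPKM in VDR-KD alone, HIST1H3E in VDR-WT alone, and 1 is a merged entry. In the libraries labelled VDR-KD, 2 of the 19 were higher, HIST1H2BJ and HIST1H3C, where 13.1% of all tested entries were higher. A single entry, HIST2H3DP1, was lower, where 9.68% of all were lower, and 16 did not pass. With 1 entry of 19 making 5.26%, both counts are near the background. Fitted values were above 0 for 15 and below 0 for 4, with a median log2 fold change of 0.37, while the median over all tested entries was 0.02. The unadjusted p was under 0.05 for 5 of the 19 and for 36.5% of all entries.

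HIST1H2BJ, which encodes an H2B, lies at chr6:27125897-27132750. In the VDR-KD libraries, in the order of treatments used from here on, it had 1.48 FPKM with ethanol, 1.47 with 1,25(OH)2D3, 2.88 with 1,20(OH)2D3, 2.03 with 25(OH)D3 and 1.34 with 20(OH)D3. In VDR-WT it was listed at 0 with ethanol, and had 0.397, 0.476, 0.458 and 0.408 FPKM in the same order of compounds. All 5 VDR-KD libraries were above all 5 VDR-WT libraries, with a log2 fold change of 2.29 (SE 0.409, limma, adjusted p = 0.00545). No VDR-WT library reached 0.5 FPKM, so the entry was chosen through its VDR-KD values, and this separation is in part set by that choice. Without the VDR-KD 1,20(OH)2D3 and VDR-WT 20(OH)D3 libraries the log2 fold change was 2.52 and missed the threshold (limma, adjusted p = 0.069), in a fit with 2 residual degrees of freedom. The log2 fold change was 1.06 with 1 instead of 0.1 added.

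HIST1H2BK, a neighboring H2B gene at chr6:27146418-27146798, was the most abundant entry, and the genotypes overlapped. It had 5.46, 5.82, 8.73, 9.93 and 9.24 FPKM in VDR-KD from ethanol to 20(OH)D3, and 6.71, 6.48, 9.08, 7.00 and 7.74 FPKM in VDR-WT. These are 80 fragments in VDR-KD (63.4 to 99.6) and 74 in VDR-WT (58.1 to 92.9), with 11 to 21 per library. The log2 fold change was 0.05, with a 95% interval from -0.24 to 0.34 and an adjusted p = 0.812 from limma. The variance of its fragments over the 10 libraries was 0.71 times their mean, where counting error alone gives about 1.

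**Figure D4:**
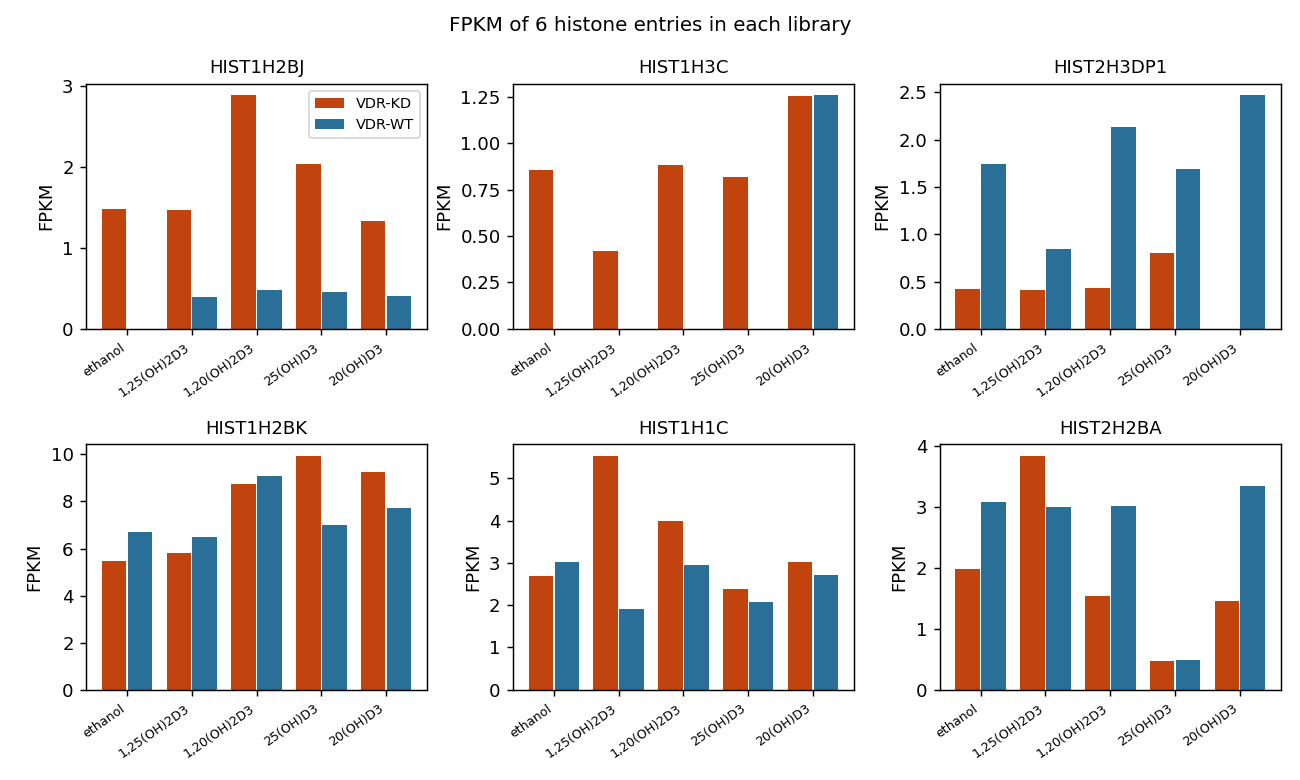
Bars show FPKM in each of the 10 libraries for 6 histone entries, by treatment, with VDR-KD beside VDR-WT. HIST1H2BJ is higher in VDR-KD in every treatment, HIST2H3DP1 is lower in every treatment, HIST1H3C has 4 VDR-WT libraries at 0, HIST1H2BK overlaps, HIST1H1C has its highest bar in VDR-KD with 1,25(OH)2D3, and HIST2H2BA is low in both 25(OH)D3 libraries.

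HIST1H3C, an H3 gene at chr6:26045411-26045821, was called on few fragments. In VDR-KD it had 0.855, 0.419, 0.882, 0.817 and 1.26 FPKM from ethanol to 20(OH)D3. In VDR-WT it was at 0 in 4 libraries and at 1.26 FPKM with 20(OH)D3, so 1 VDR-WT library was at the level of the highest VDR-KD library. The sums are 10 fragments in VDR-KD (4.79 to 18.4) and 3 in VDR-WT (0.619 to 8.77), and these intervals overlap. The log2 fold change was 2.42 (SE 0.642, limma, adjusted p = 0.0282), a size that depends on the added constant: it was 0.63 with 1 added and 4.94 with 0.01 added. Leaving out a pair gave a limma adjusted p of 0.0681 for ethanol, 0.0627 for 1,25(OH)2D3, 0.0712 for 1,20(OH)2D3 and 0.0738 for 25(OH)D3, with log2 fold changes of 2.21 to 2.44. Without the 20(OH)D3 pair, which holds the VDR-WT library above 0, it passed at 3.03 (limma, adjusted p = 0.0178).

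HIST2H3DP1, an H3 pseudogene in the entry at chr1:121118126-121146826, had 0.418, 0.41, 0.431, 0.799 and 0 FPKM in VDR-KD in that order, and 1.74, 0.844, 2.13, 1.69 and 2.47 FPKM in VDR-WT. In FPKM the genotypes did not overlap, although 0.799 and 0.844 FPKM lie close. Whole fragments were not recovered for this entry. Its annotated transcript has 416 bases, and at 411 bases 1 fragment was worth 0.408 to 0.444 FPKM. The values thus rest on few fragments, and the close ones may be the same number of fragments. The log2 fold change of HIST2H3DP1 was -2.09 (SE 0.542, limma, adjusted p = 0.026). The call was lost in 7 of 13 alternatives, where the adjusted p was up to 0.108, among them the fits without the ethanol, 1,20(OH)2D3 or 25(OH)D3 pair (0.0719, 0.0836 and 0.0513).

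HIST1H2BL and HIST2H4A came next without passing. HIST1H2BL, an H2B gene, had 16 fragments in VDR-KD (9.15 to 26.0) and 4 in VDR-WT (1.09 to 10.2), with 1, 5, 4, 1 and 5 fragments and 0, 0, 2, 1 and 1 fragments in the 5 treatments, from ethanol to 20(OH)D3. Its log2 fold change was 1.79 (limma, adjusted p = 0.0702). HIST2H4A, an H4 gene whose fragments cannot be told from those of HIST2H4B, had means of 0.809 and 0.327 FPKM in VDR-KD and VDR-WT and a log2 fold change of 1.3 (limma, adjusted p = 0.091).

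Among the H2A entries, none of the 4 tested passed. HIST3H2A, the most abundant of them, had 3.81, 3.93, 3.86, 2.55 and 2.82 FPKM in VDR-KD from ethanol to 20(OH)D3 as above, and 1.79, 3.67, 3.63, 1.2 and 3.49 FPKM in VDR-WT. With 130 fragments (108.6 to 154.4) against 102 (83.2 to 123.8), its log2 fold change was 0.39 (95% interval -0.12 to 0.90, limma, adjusted p = 0.243). The variance of its fragments was 2.24 times their mean, with 9 and 13 fragments in VDR-WT with 25(OH)D3 and ethanol and 20 to 30 in every other library. HIST1H2AC had 2.38 ± 0.376 FPKM in VDR-KD against 1.95 ± 0.274 FPKM in VDR-WT. HIST2H2AC was at 0 in VDR-WT with ethanol and between 0.947 and 2.78 FPKM elsewhere. HIST1H2AG was steady in VDR-KD, at 0.523 to 0.718 FPKM, and ran from 0.139 to 0.987 FPKM in VDR-WT. The remaining H2A entries, HIST1H2AE, HIST1H2AI, HIST1H2AJ and HIST2H2AB, had means of 0.136 to 0.38 FPKM.

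Among the H2B entries, 1 of 6 tested passed, HIST1H2BJ. HIST1H2BD, second in level, had 3.85, 2.93, 1.89, 3.26 and 2.64 FPKM in VDR-KD against 2.11, 1.60, 2.78, 2.82 and 1.83 FPKM in VDR-WT, with a log2 fold change of 0.37 (limma, adjusted p = 0.261). Its locus in the table, chr6:26158146-26184655, also holds HIST1H2BE. HIST1H2BC had 1.19 ± 0.556 FPKM in VDR-KD against 0.852 ± 0.515 FPKM in VDR-WT. HIST2H2BE, under the filter on the mean, had 55 fragments in VDR-KD (41.4 to 71.6) against 28 in VDR-WT (18.6 to 40.5). HIST1H2BG had 27 fragments (17.8 to 39.3) against 13 (6.92 to 22.2). Both reached 0.5 FPKM in VDR-KD alone, so that their direction is in part set by the choice of entries, and neither passed in the limma fit with no filter. HIST1H2BH had 39 against 35 fragments. The remaining H2B entries were the pseudogenes HIST2H2BC and HIST2H2BD, HIST1H2BO and the merged entry of HIST2H2BB, which had 0.714 ± 0.543 FPKM in VDR-KD against 0.192 ± 0.264 FPKM in VDR-WT.

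Among the H3 entries, HIST1H3E had 0.367 to 0.485 FPKM in the VDR-KD libraries and 0.232 to 1.79 FPKM in VDR-WT, where the highest value was that with 1,20(OH)2D3. Its log2 fold change was -0.32 (limma, adjusted p = 0.65). Of the 4 H3 entries with recovered fragments HIST1H3H had the most, 19 against 17, and its variance was 0.321 times the mean. HIST1H3B and HIST1H3F rest on 6 and 9 fragments.

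Among the H4 entries, HIST4H4 had 0.909, 0.815, 1.28, 0.678 and 0.313 FPKM in VDR-KD against 1.48, 1.25, 0.548, 1.95 and 0.951 FPKM in VDR-WT, in the same order of treatments. It was lower in VDR-KD in every treatment except 1,20(OH)2D3, with a log2 fold change of -0.57 (95% interval -1.46 to 0.32, limma, adjusted p = 0.327). HIST1H4H had a log2 fold change of 0.28 (limma, adjusted p = 0.601). HIST1H4J had 6 fragments in each genotype. HIST1H4D had 3 fragments in VDR-KD and 1 in VDR-WT, all 4 in the ethanol libraries. HIST1H4C, which reached 0.5 FPKM in VDR-KD alone, had 7 fragments against 2, and HIST1H4F had 2 in each genotype.

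HIST1H1C, the H1 entry, encodes the linker histone H1.2 and lies at chr6:26055787-26056428. It had 2.68, 5.53, 3.99, 2.39 and 3.02 FPKM in VDR-KD against 3.02, 1.91, 2.95, 2.08 and 2.71 FPKM in VDR-WT. The VDR-KD library with 1,25(OH)2D3 stood above the other 9, with 27 fragments against 9 to 19. The sums were 86 fragments (68.8 to 106.2) in VDR-KD and 60 (45.8 to 77.2) in VDR-WT. The log2 fold change was 0.42 (95% interval -0.11 to 0.94, limma, adjusted p = 0.229).

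Of the merged entries, HIST1H2AL with HIST1H2BN was tested and had a log2 fold change of 0.35 (limma, adjusted p = 0.621). HIST1H2AD with HIST1H3D had 0.336 ± 0.345 FPKM in VDR-KD against 0.644 ± 0.603 FPKM in VDR-WT. HIST1H2AM with HIST1H3J had 0.37 ± 0.384 FPKM and 0.465 ± 0.323 FPKM.

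**Figure D5:**
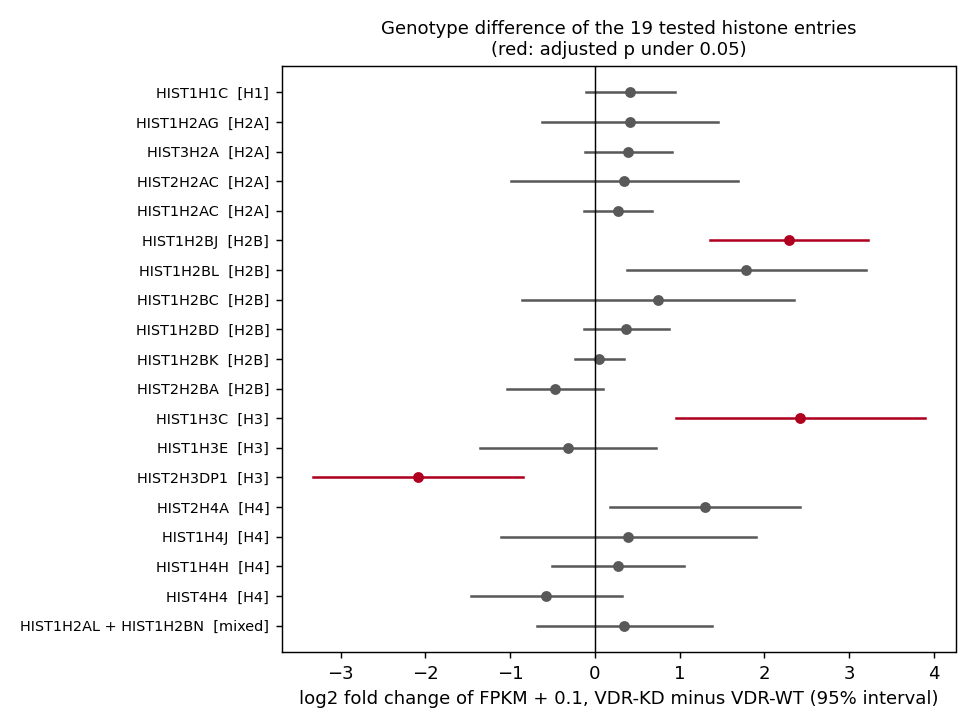
Points are log2 fold changes of FPKM plus 0.1, VDR-KD minus VDR-WT, for the 19 tested entries, with 95% intervals from limma, grouped by histone type. The 3 entries with an adjusted p under 0.05 are in red, HIST1H2BJ and HIST1H3C to the right of 0 and HIST2H3DP1 to the left, and the other 16 are in gray.

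The treatments were compared with ethanol over both genotypes in the same model. With 1,25(OH)2D3, the hormonal form of vitamin D, none of the 19 entries passed, where 1.99% of all entries did. The other comparisons with ethanol also called none of the 19, against 0.0204% of all entries for 1,20(OH)2D3, 0% for 25(OH)D3 and 0% for 20(OH)D3. At an unadjusted p under 0.05 there were 1, 5, 2 and 2 histone entries in these 4 comparisons and 2417, 1838, 1180 and 2092 of all entries. The lowest adjusted p of a histone entry was 0.188, 0.326, 0.387 and 0.244 from limma.

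HIST2H2AC had the largest fitted value with 1,25(OH)2D3, a log2 fold change of 2.77 (SE 0.927, limma, adjusted p = 0.188). It rests on 2 and 0 fragments in the ethanol libraries of VDR-KD and VDR-WT, against 5 and 4 with 1,25(OH)2D3. Without the VDR-KD ethanol library its adjusted p was 0.0385 from limma, since the ethanol level is then a single library at 0. HIST1H2BK had 11 and 13 fragments with ethanol, 12 and 13 with 1,25(OH)2D3, 17 and 18 with 1,20(OH)2D3, 21 and 14 with 25(OH)D3 and 19 and 16 with 20(OH)D3, VDR-KD first. Its log2 fold changes against ethanol were 0.02, 0.55, 0.46 and 0.48 in the same order of compounds, each with a standard error of 0.2, and none passed (adjusted p from 0.33 to 0.979 from limma).

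Pairs of compounds were compared at the same dose and time, 4 pairs in all. The pair 25(OH)D3 and 1,25(OH)2D3 is set apart by a hydroxyl on the A ring and differed in 1 of the 19 entries, HIST2H2BA, where 3.06% of all entries differed. HIST2H2BA, an H2B pseudogene in the entry at chr1:121087345-121117257, had 1.99, 3.83, 1.54, 0.473 and 1.46 FPKM in VDR-KD from ethanol to 20(OH)D3 in the order above, and 3.08, 2.99, 3.01, 0.482 and 3.35 FPKM in VDR-WT. Both 25(OH)D3 libraries were below the other 8. A transcript of HIST2H2BA has 381 bases, a length at which 1 fragment was worth 0.473 to 0.516 FPKM. Each low value may thus rest on about 1 fragment, and the gene shares 55.2% of its sequence windows with others. The log2 fold change of 1,25(OH)2D3 against 25(OH)D3 was 2.59 (SE 0.389, limma, adjusted p = 0.0135). Against ethanol, 25(OH)D3 gave -2.16 and did not pass (adjusted p = 0.387 from limma, unadjusted p = 0.000465), and 25(OH)D3 against 20(OH)D3 gave -2.01 (limma, adjusted p = 0.745). With each genotype in 1 library per treatment, a treatment and the preparation of its libraries cannot be told apart.

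1,25(OH)2D3 and 1,20(OH)2D3, whose side chain hydroxyls stand at different carbons, differed in none of the 19, where 0.259% of all entries differed. For HIST1H2BK the difference was -0.53 on the log2 scale, with a 95% interval from -0.99 to -0.07 and an adjusted p = 0.421 from limma. 1,20(OH)2D3 and 20(OH)D3 differed in none, against 0.034% of all entries, and 25(OH)D3 and 20(OH)D3 in none, against 0%. For HIST1H2BK these intervals were -0.38 to 0.53 and -0.48 to 0.44. At an unadjusted p under 0.05 there was 1 histone entry in each of these 3 comparisons, HIST1H2BK, the merged HIST1H2AL with HIST1H2BN, and HIST2H2BA. A p that misses the threshold does not show that the compounds act alike.

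Whether the response to 1,25(OH)2D3 differs between the genotypes was tested with an interaction term, set against the pool of the 4 remaining treatments (6 residual degrees of freedom). It passed for none of the 19 entries and for 0% of all entries, although 450 of these had an unadjusted p under 0.05. Of the histone entries, 2 had one, HIST1H4J, with an interaction of 3.85 on the log2 scale (limma, adjusted p = 0.967), and HIST1H1C, with 1.34 (limma, adjusted p = 0.9998). HIST1H4J had 2 fragments in VDR-KD and 0 in VDR-WT with 1,25(OH)2D3.

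Genes around the histone genes in the same pathway were described from lists, and each count is to be read against the 13.1% of all tested entries that were higher in VDR-KD and the 9.68% that were lower. Of 45 tested genes of DNA replication and S phase, 26 were higher in VDR-KD, 0 were lower and 19 did not pass, with a median log2 fold change of 0.26. CDT1, a licensing factor of replication origins, had 20.8 ± 3.72 FPKM in VDR-KD against 9.46 ± 1.3 FPKM in VDR-WT, or a log2 difference of 1.12 (limma, adjusted p = 0.000228). MCM5, a subunit of the replicative helicase, rose by 0.90, TK1, thymidine kinase, by 0.88, and E2F1, a transcription factor of S phase genes, by 0.84 on the log2 scale. The list summed to 2068 to 2258 FPKM in VDR-KD against 1691 to 1797 FPKM in VDR-WT, without overlap. How often such sums separate among other genes was not counted. The summed histone entries overlapped between genotypes, but at 29.3 to 43.5 FPKM they are far lower and rest on few fragments. Whether they follow the S phase genes was not tested. Of 42 genes of mitosis, 3 were higher, 10 lower and 29 did not pass. BIRC5 rose by 0.64, and on the same scale CENPF fell by 0.38, KIF20A by 0.31 and BUB1 by 0.31.

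Of 27 tested genes of histone transcription and 3′ end processing, 5 were higher, 3 lower and 19 did not pass, against 13.1% higher and 9.68% lower over all entries, with a median log2 fold change of 0.08. SLBP was among the higher, with 49.97 ± 4.46 FPKM in VDR-KD, 43.0 ± 1.07 FPKM in VDR-WT, and a log2 fold change of 0.21 (limma, adjusted p = 0.0415). NPAT, the coactivator of histone gene transcription at S phase, was lower, with 16 ± 2.13 FPKM against 22.2 ± 2.34 FPKM, a log2 fold change of -0.47 (limma, adjusted p = 0.0156). On the log2 scale CSTF2, a cleavage factor that also acts on histone ends, rose by 0.40 and CPSF1, a polyadenylation factor, by 0.35, and the cap-binding NCBP2 fell by 0.35. ZNF473, LSM10 and LSM11, parts of the U7 processing machinery, had log2 fold changes of -0.11, 0.21 and 0.21 and did not pass (limma, adjusted p = 0.449, 0.152 and 0.27). Of 19 genes of histone mRNA decay, none was higher and 4 were lower: the exonuclease XRN1, PNRC2 and the terminal nucleotidyltransferases PAPD7 and ZCCHC11, which fell by 0.47, 0.26, 0.36 and 0.21. Of 11 genes of poly(A) signal choice, 2 were higher, ZC3H18 by 0.91 and NUDT21 by 0.38, none was lower and 9 did not pass. The median log2 fold change of this list was -0.13, below 0.

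Of 17 listed histone genes outside the replication-dependent set, 10 were tested, of which 4 were higher in VDR-KD, 1 was lower and 5 did not pass, beside the same 13.1% and 9.68%. H3F3B, which encodes H3.3, had 381 ± 26.9 FPKM in VDR-KD against 223 ± 23.1 FPKM in VDR-WT, or a log2 difference of 0.78 (limma, adjusted p = 0.000131), and H3F3A, which encodes the same protein, fell by 0.32. H1F0, the linker histone H1.0, rose by 0.73, HILS1 by 0.58 and H1FX by 0.45, and H2AFX had 0.14 and did not pass (limma, adjusted p = 0.206). Of 24 histone chaperones, 2 were higher and 7 lower, where 13.1% and 9.68% of all entries were, among them MCM2 at 0.40, HJURP at -0.42, ATRX at -0.37 and HAT1 at -0.25. Of 11 cell cycle inhibitors, 2 were higher and 3 lower, with RBL1 at 0.61, RBL2 at 0.53, CDKN1C at -0.94 and CDKN1B at -0.48. Of 11 heat shock genes, 3 were higher, HSPA4L, DNAJB1 and HSPH1, and none was lower. The list summed to 2469 to 2836 FPKM in VDR-KD against 2017 to 2621 FPKM in VDR-WT, lowest in VDR-WT with 25(OH)D3. Single genes, named here after their values were seen, varied far more: the inducible HSPA1A lay between 9.57 and 165 FPKM over the VDR-KD libraries and between 6.65 and 71.1 FPKM over those of VDR-WT, and HSPA6 between 0.468 and 44.5 FPKM and between 0.176 and 15.7 FPKM. The part of heat shock genes in the histone values was not tested.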

How the data were processed

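RNA from 10 libraries of WM164 cells was sequenced by the authors. According to the submitters' processing notes, STAR 2.7.1a, Cufflinks 2.2.1 and Cuffdiff were used on GRCh38, and the deposited FPKM values were used here without further scaling. The sources used here give no annotation, strandedness or handling of fragments with several matches, so antisense and near-identical genes can share values. Read totals are not in the table, and all of its sample columns were used. A treatment label that reads 2(OH)D3 was taken as 20(OH)D3, as in the title of that library.

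Tests used limma 3.58.1 in R 4.3.3 on log2 of FPKM plus 0.1 over entries with a mean of at least 0.5 FPKM, with a trend, Benjamini-Hochberg adjustment over all of them within each comparison and 0.05 as the threshold. Genotype and treatment were terms, so each treatment was a block for the genotype comparison. The fit was tested on simulated data. Whole fragments were recovered for single-exon entries within 0.05 of a fragment or 1% of their number, and 95% Poisson intervals were computed with scipy 1.17.1 in Python 3.11.15. Promoters came from RefSeq and transcripts from GENCODE 29. Figures were drawn with matplotlib 3.10.9.

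The histone entries and gene lists were chosen with earlier results of these data known. Named were the entries past a test, the 3 highest and the 2 with the largest genotype difference (at a mean of at least 1 FPKM) of each type, merged entries, those next to the limit, and for each list up to 4 genes past the test with the largest changes, plus SLBP, NPAT, ZNF473, LSM10, LSM11, H1F0 and H2AFX. Other entries were named after their values were seen. Settings varied were the added constant, the filter, the scaling, the trend, the block, the limit, the merged entries and the libraries included. An item among the marker genes is not reported here.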

Additional observations from a re-analysis of the deposited data

Results flagged for a closer look

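HIST1H2BC moved in opposite directions in the genotypes with 25(OH)D3, by more than 2-fold in each when 0.1 was added to each FPKM. It had 0.444 FPKM with ethanol and 1.79 with 25(OH)D3 in VDR-KD, and 1.36 FPKM and a listed 0 in VDR-WT. With 0.1 added, the log2 ratios were 1.80 in VDR-KD and -3.87 in VDR-WT, a difference of 5.67. Because 1 value is a listed 0, the size of this difference depends on the added constant. The difference rests on 1 library for each value and was not tested.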

How the results depend on the processing

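The number of histone entries higher in the libraries labelled VDR-KD was 2, and 1 at a mean of at least 1 FPKM, a filter that HIST1H3C does not pass, and 1 without the VDR-KD 1,20(OH)2D3 and VDR-WT 20(OH)D3 libraries. It ranged from 1 to 2 when each treatment pair was left out, and without the 25(OH)D3 pair HIST1H2BL passed in place of HIST1H3C. The number lower was 1, and 0 with 0.01 added, with no filter, with no trend and without those 2 libraries, and from 0 to 1 when each pair was left out. Without the replicate block, that is without treatment as a term, the numbers were 2 and 1, and none changed with a compound. The number changed by 1,25(OH)2D3 against ethanol was 0, and 1 with no filter, where HIST1H4D with its 4 fragments passed, and from 0 to 1 when each library was left out. The genotype log2 fold changes of HIST1H2BJ, HIST1H3C and HIST2H3DP1 kept their direction in the alternatives run for them. That of HIST2H2BA between 1,25(OH)2D3 and 25(OH)D3 was refitted with 1 added and at a mean of at least 1 FPKM, and passed in both. It was not refitted with a library left out. The ratios of summed FPKM stayed within the spread between treatments with upper quartile scaling, without merged entries and without each pair. The gene lists were refitted with 1 or 0.01 added and at a mean of at least 1 FPKM, where their counts stayed within 1.5 times those reported. Over all tested entries, 1925 higher and 1422 lower became 618 and 360 without those 2 libraries. The causes were not tested. Of 23 single-exon entries, 13 rest on fewer than 20 fragments over 10 libraries.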
